A study of Mus musculus with 6 samples.

Results

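The genes described here are 34 of 12389 in the deposited tables: the integrins and the focal adhesion proteins that tie them to actin, taken by symbol from a list of 35. The rule itself uses no measured value, but the list was drawn up with earlier results of these data known. They comprise 10 integrin alpha subunits, 4 integrin beta subunits and 20 adaptors. The fifteenth integrin of the list, Itga4, is not analysed here. The cells were primary aortic vascular smooth muscle cells, grown out of pieces of mouse thoracic aorta and harvested untreated at or before passage 6. The 6 libraries fall into 2 groups of 3: wild type (WT), and LRRC8A KO, from mice in which LRRC8A was removed in smooth muscle. LRRC8A is the obligatory subunit of the volume-regulated anion channel, which lets chloride and small organic solutes leave a swollen cell. The sources used here do not give the promoter that drove the deletion or the age of the mice. The genotype field of all 6 samples reads wild type, so the titles set the groups. The submitters call the 3 cultures of a genotype independent replicates.

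An integrin is a heterodimer of an alpha and a beta chain that binds the extracellular matrix outside the cell and, through talin and kindlin at its cytoplasmic tail, the actin cytoskeleton inside it. The alpha chain largely decides the ligand: Arg-Gly-Asp sites of fibronectin and vitronectin, collagens or laminins. Around the tails assemble vinculin, alpha-actinin, tensins, the ILK-PINCH-parvin complex and the kinases FAK and SRC with their Cas scaffolds, and in arteries these adhesions carry the contractile force of smooth muscle to the matrix.

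Values are scaled reads, that is, reads divided by a factor for each library as deposited, and lists of 3 values follow replicates 1, 2 and 3. The targeted gene Lrrc8a had 2578, 2194 and 1221 in WT against 868, 672 and 506 in KO, so every KO library lay below every WT library. The predicted gene Gm28035 overlaps Lrrc8a. Estimated depth ran from 31.0 to 47.9 M reads per library. Every gene in the deposited tables reached at least 200.5 estimated reads in some library. Of 9 smooth muscle markers 7 were tested and Des and Myocd are not analysed here. The summed level of the 7 ran from 16629 to 205292 scaled reads in WT and from 31567 to 106114 in KO, highest in replicate 3 of each group. Acta2, smooth muscle actin, ran from 10651 to 130984 in WT, while Myh11, smooth muscle myosin, had 90.1, 152 and 1656 in WT and 41.7, 20.8 and 96.8 in KO. In these bulk samples, fewer cells of a type and less RNA per cell cannot be told apart. Fold changes are KO over WT differences of log2(scaled value + 2) with their standard errors (SE) and 95% intervals from limma, a linear model fitted across all genes, and understate the change of low genes.

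None of the 34 genes passed an adjusted p of 0.05 in limma, nor did any other gene: the share called over all 12363 genes tested was 0%. Even the targeted gene Lrrc8a did not pass, with a log2 fold change of -1.51 (SE 0.34) and an adjusted p of 0.999 in limma. At an unadjusted p under 0.05 in limma, 1 member was higher in KO and 2 were lower, or 2.94% and 5.88% of the 34. Over all genes tested the shares were 1.46% higher and 2.15% lower. Of the other tools, limma-voom called 0 genes and limma with library quality weights called 30, with 0 members. The authors' deposited table has 65 genes under a false discovery rate (FDR) of 0.05, also with 0 members. Lrrc8a was among the 65, at an FDR of 0.0196. The 3 members at an unadjusted p under 0.05 in limma were Nedd9, a scaffold of the Cas family (higher), and the integrin subunits Itga7 and Itga1 (lower). Without WT replicate 1 the count was 1, Itga7 alone. Itga1 was also lost without WT replicate 3 or KO replicate 3, and Nedd9 without WT replicate 2 or KO replicate 2. With library quality weights Itga7 and Itga1 were lost, and Nedd9, Bcar1 and Itgb8 had an unadjusted p under 0.05 in limma. Over all genes tested, 995 were then higher and 1289 lower at this threshold, against 181 and 266 without the weights. Itgb8 reached 200.5 estimated reads in KO replicate 2 alone. For 6 members the ranges of the genotypes were separate. Nedd9, Parva and Lims1 were higher in KO, 8.82% of the members beside 3.91% of all genes tested. Itga7, Itga1 and Bcar1 were lower, 8.82% beside 4.51%. Without WT replicate 2 the number of members that did not overlap was 12, but fewer libraries make overlap rarer by construction. The share over all genes without that library was not computed. With all 6 libraries, each scaled to its total, the number of members without overlap was 5, because Bcar1 then overlapped.

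**Figure D1:**
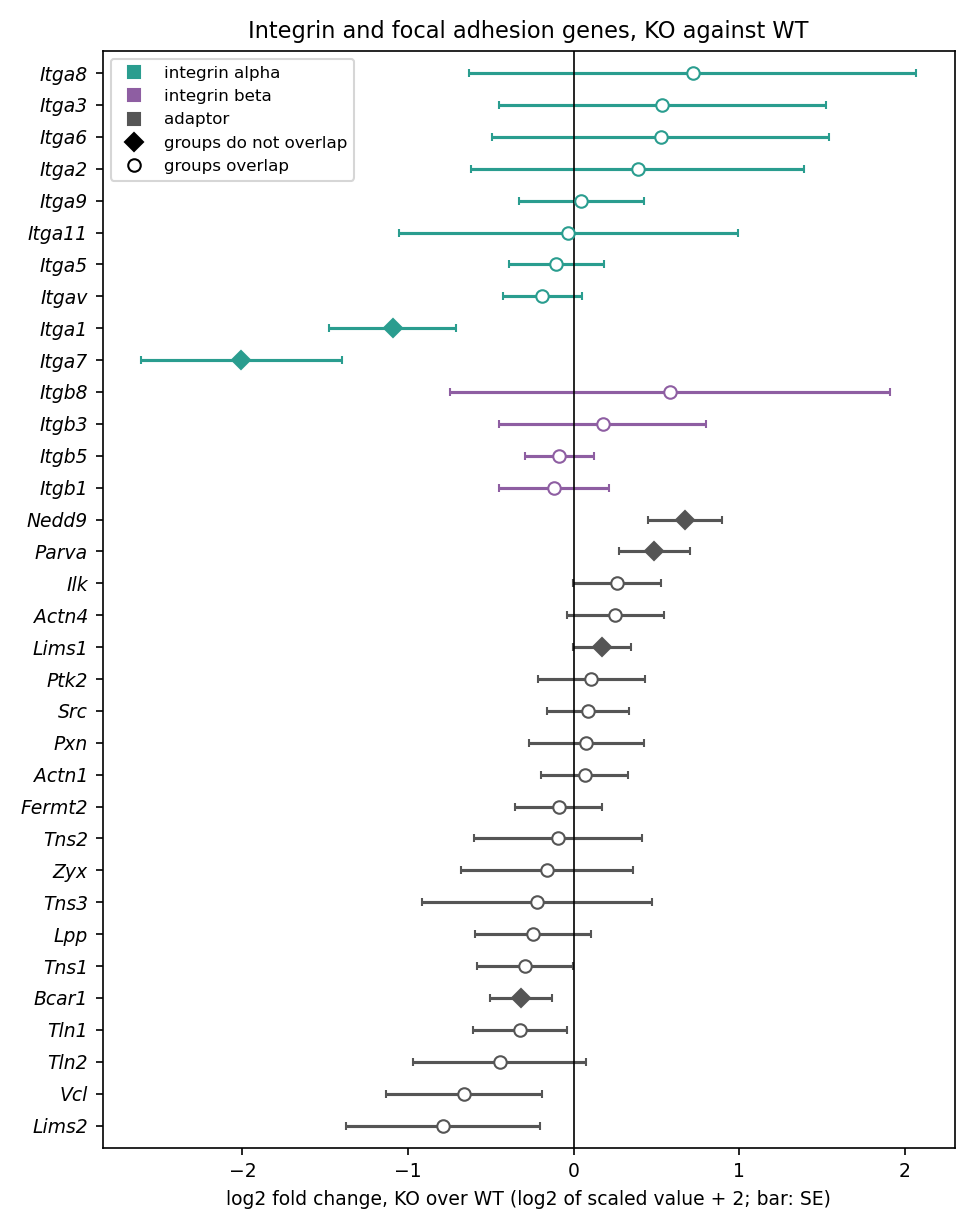
Log2 fold changes of the 34 members, KO over WT, on the log2(scaled value + 2) scale, with bars for the SE from limma. Filled diamonds mark the 6 members whose 3 KO libraries do not overlap the 3 WT libraries. Itga7 at -2.01 and Itga1 at -1.09 lie farthest to the left, and Nedd9 at 0.67 is the highest of the filled symbols.

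As a whole the members were centred near 0. The median log2 fold change was -0.06 over the 34 members and 0.00 over all genes tested, with 16 members above 0 and 18 below. It was 0.01 for the alpha subunits, 0.05 for the beta subunits and -0.09 for the adaptors. The alpha subunits spread widely among cultures of the same genotype. Their median residual SD on the log2 scale was 1.22, against 0.35 for the adaptors and 0.36 for all genes tested.

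Of the receptors for Arg-Gly-Asp ligands, Itgav and Itga5 were the most abundant alpha chains per kilobase, and Itga8 was the lowest. Per kilobase of exon, Itgav, the alpha chain of the vitronectin receptors, had 1465 ± 239 scaled reads (SD, n = 6 libraries). Itga5, the alpha chain of the fibronectin receptor, had 961 ± 231 per kilobase (SD, n = 6). Itgav was above Itga5 in 6 of 6 libraries, although the ranges of the pair overlapped. On the scale of whole genes, Itgav had 18674, 14471 and 17008 scaled reads in WT and 13327, 12739 and 18235 in KO. The groups overlapped, and the log2 fold change was -0.19 with a 95% interval from -0.75 to 0.37. Itga5 had 5779, 5264 and 3632 in WT and 3877, 3706 and 6184 in KO, with KO replicate 3 the highest of all, and a log2 fold change of -0.10 (interval -0.78 to 0.57). Itga8, whose product binds nephronectin and fibronectin, was the least even alpha chain, at 9.48, 427 and 46.6 in WT and 99.5, 48.5 and 207 in KO, with a log2 fold change of 0.72 (SE 1.35). The group means of Itga8 ran the other way, 161 in WT and 118 in KO, as did its log2 ratio of -0.44 in the authors' deposited table.

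Among the collagen receptors, Itga1 was lower in KO and Itga2 and Itga11 showed no such order. Itga1 (ENSMUSG00000042284, GRCm38 chromosome 13, 114953096 to 115101964, minus strand) encodes the alpha chain of a receptor for collagen IV and laminin that is characteristic of differentiated smooth muscle. Its values were 3578, 1355 and 3095 scaled reads in WT and 1318, 1268 and 923 in KO. The groups were separate, but WT replicate 2 was only just above KO replicate 1. The WT mean was 2676 ± 1169 and the KO mean 1170 ± 215 (SD, n = 3 each). The log2 fold change was -1.09 (SE 0.38), with an unadjusted p of 0.0245 and an adjusted p of 0.999 in limma. By same-numbered pair the differences were -1.44, -0.10 and -1.74. The exact permutation p for Itga1 was 0.1 (two-sided), which is the minimum for groups of 3. Both the sign in each pair and this p follow from the separate groups and add nothing to them. With library quality weights the log2 fold change was -0.26. Pelo lies inside Itga1 on the same strand, so reads of the pair may have been divided between them. Pelo had a log2 fold change of -0.24 (SE 0.21).

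Itga2, the alpha chain of the main receptor for fibrillar collagen on many cells, had 1739, 965 and 113 in WT and 1324, 567 and 574 in KO. Itga11, a collagen receptor of mesenchymal cells, had 165, 887 and 1217 in WT and 697, 164 and 1452 in KO. Both genes varied more within a genotype than between genotypes, with log2 fold changes of 0.39 (interval -2.03 to 2.81) and -0.03 (interval -2.50 to 2.43).

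Of the laminin receptors, Itga7 was lower in every KO library than in any WT library, and the groups overlapped for Itga3 and Itga6. The ratio of Itga7 to Itga6 also overlapped between the genotypes, and a difference between these genes in their response was not tested. Itga7 (ENSMUSG00000025348, GRCm38 chromosome 10, 128933818 to 128958282, plus strand) encodes the laminin-binding alpha chain of skeletal, cardiac and vascular muscle. It had 1890, 566 and 744 scaled reads in WT and 229, 439 and 120 in KO. Every KO library was below every WT library, with the narrowest gap between WT replicate 2 and KO replicate 2. The WT mean was 1066 ± 718 and the KO mean 263 ± 162 (SD, n = 3 each), or 24.6% of WT. The log2 fold change was -2.01 (SE 0.61), with an unadjusted p of 0.0132 and an adjusted p of 0.999 in limma and an exact permutation p of 0.1. With library quality weights the log2 fold change of Itga7 was -0.95. By pair the differences were -3.03, -0.36 and -2.62. Their sign and the exact p follow from the separate groups. In the authors' deposited table the log2 ratio of Itga7 was -2.02 with an FDR of 0.137, the lowest FDR of any member. The authors' deposited table gave the same sign as limma for 28 of the 34 members. The 6 of opposite sign in the authors' deposited table were Itga2, Itga3, Itga8, Itga9, Itga11 and Itgb3, of which Itga8 at -0.44, Itga2 at -0.19 and Itga3 at -0.13 lay farthest from 0.

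Itga3 had 4922, 1278 and 303 in WT and 3106, 1728 and 1090 in KO, and Itga6 had 464, 482 and 84.6 in WT and 869, 648 and 101 in KO. The log2 fold change of Itga3 was 0.54 (SE 0.99). Itga3 was highest in replicate 1 of each genotype, and Itga6 was lowest in replicate 3 of each. Itga6 was higher in KO in 3 of 3 pairs, by 0.90, 0.43 and 0.25, with a log2 fold change of 0.53 (SE 1.02). Itga9, whose product binds tenascin-C among other ligands, had a log2 fold change of 0.05 (interval -0.84 to 0.93).

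**Figure D2:**
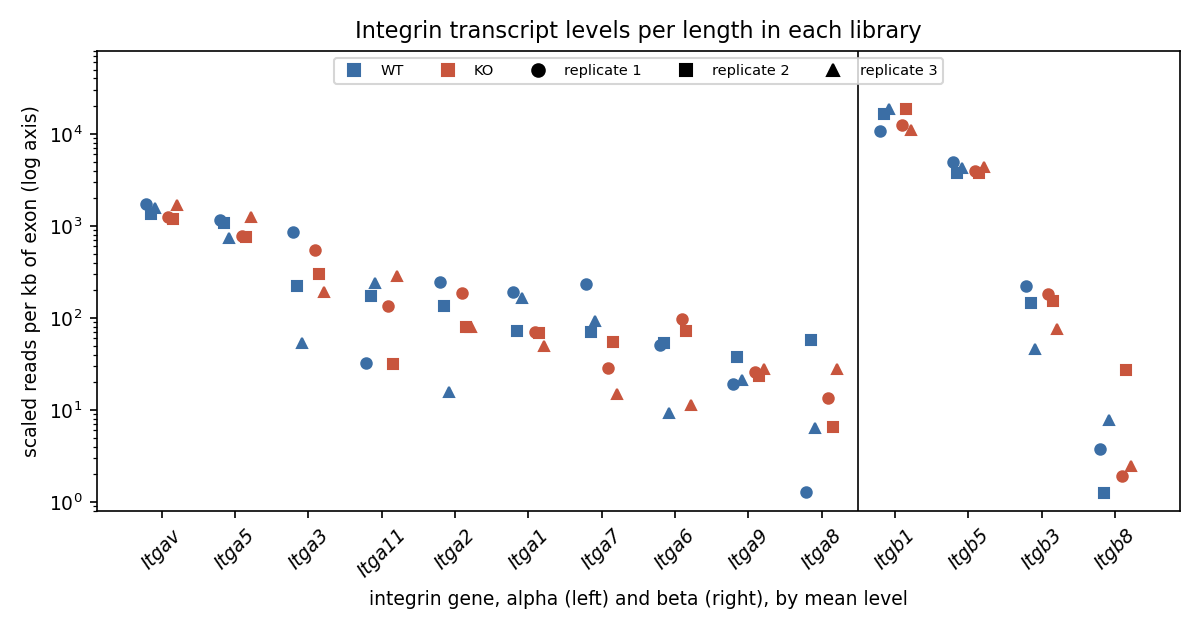
Scaled reads per kilobase of exon (log axis) of the 10 integrin alpha and 4 integrin beta genes in each library, ordered by mean level. Blue symbols are WT, red symbols KO, and the shape gives the replicate. Itgb1 and Itgb5 stand above every alpha chain, while Itgb8 spreads over 21.5-fold between libraries and Itga8 over more.

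The beta subunits kept a clear order of level. Itgb1, the common partner of most alpha chains, had 14721 ± 3649 scaled reads per kilobase, Itgb5 had 4170 ± 435, Itgb3 had 137 ± 65.6, all SD with n = 6, and Itgb8 had a mean of 7.41 with a range of 1.27 to 27.3. The ranges of neighbours in this order did not overlap. Lengths are those of all annotated exons joined, so a gene with long exons used in only some transcripts has its level understated. Itgb1 had 44286, 66755 and 76539 scaled reads in WT and 51335, 76044 and 45501 in KO, with a log2 fold change of -0.12 (interval -0.90 to 0.67). Itgb5, which pairs with the alpha-v chain to bind vitronectin, was the steadiest of the beta chains, at 17434, 13299 and 15128 in WT and 14168, 13449 and 15428 in KO, with a log2 fold change of -0.08 (interval -0.58 to 0.41). Itgb3, which with the alpha-v chain forms another vitronectin receptor, had 1304, 858 and 268 in WT and 1079, 891 and 450 in KO, with a log2 fold change of 0.18 (SE 0.63). Itgb8, which with the alpha-v chain can release active TGF-beta, had 41.5, 14.0 and 86.2 in WT and 21.4, 302 and 27.0 in KO, so its higher KO mean rests on KO replicate 2. Without that library the log2 fold change of Itgb8 turned from 0.58 to -0.60. In KO replicate 2 alone did Itgb8 reach the 200.5 estimated reads that every deposited gene had in some library.

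As a share of the summed alpha chains per kilobase, Itgav made up 44.7 ± 8.41% in WT against 44.1 ± 3.87% in KO, and Itga5 28.0 ± 4.32% against 29.6 ± 4.68% (SD over 3 libraries). Itga7 made up 3.48 ± 1.52% in WT and 1.14 ± 0.87% in KO, and Itga1 4.06 ± 1.73% and 2.09 ± 0.66%. The share of Itga7 did not overlap between the genotypes. That of Itga1 did, with 2.65% in KO replicate 2 above 2.25% in WT replicate 2. Itgb1 made up 76.7 ± 7.60% of the summed beta chains in WT and 76.4 ± 5.54% in KO.

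Of the adaptors that link integrins to actin, none of the 9 reached an unadjusted p under 0.05 in limma, and 7 of 9 had log2 fold changes below 0. Vcl, vinculin, which reinforces the talin-actin bond under force, had 26374, 13592 and 26810 scaled reads in WT and 20585, 16748 and 7011 in KO. The groups overlapped, with KO replicate 3 far below the rest, and the log2 fold change was -0.66 (SE 0.47). Without KO replicate 3 the log2 fold change of Vcl was -0.20. Tln1, talin 1, the main integrin activator, had 25864, 15999 and 27472 in WT and 21288, 17087 and 15950 in KO, with a log2 fold change of -0.32 (SE 0.28). Tns1, tensin 1, had 52904, 29204 and 35157 in WT and 32209, 27583 and 33384 in KO. WT replicate 1 was the highest library for Tns1 and also for Tns2 and Tns3, and the log2 fold changes were -0.29 (SE 0.29), -0.09 (SE 0.51) and -0.22 (SE 0.70).

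Actn1 and Actn4, the alpha-actinins that cross-link actin, had 22453, 17541 and 25268 and 13670, 13982 and 23303 in WT. In KO they had 22028, 18510 and 28090 and 17850, 17344 and 24302. Both were highest in replicate 3 of each genotype. Their log2 fold changes were 0.07 (interval -0.55 to 0.69) and 0.25 (interval -0.44 to 0.94). Fermt2, kindlin-2, which activates integrins together with talin, had -0.09 (interval -0.71 to 0.53), and Tln2, the second talin, -0.45 (SE 0.52). Zyx, zyxin, a sensor of tension on actin bundles, was the highest adaptor per kilobase at 5962 ± 2610 (SD, n = 6). It had 42513, 15183 and 46104 scaled reads in WT and 45268, 19043 and 24701 in KO, lowest in replicate 2 of both groups, with a log2 fold change of -0.16 (SE 0.52). Lpp, a zyxin relative enriched in smooth muscle, had a log2 fold change of -0.24 (SE 0.35).

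The ILK complex joins the pseudokinase ILK, a PINCH protein and a parvin, and serves as a bridge from beta-integrin tails to actin. Parva (ENSMUSG00000030770, GRCm38 chromosome 7, 112427505 to 112591692, plus strand), alpha-parvin, had 8417, 8494 and 7743 scaled reads in WT and 11681, 9497 and 13767 in KO. Every KO library was above every WT library, and the WT values differed little among themselves. The log2 fold change was 0.49 (SE 0.22), with an unadjusted p of 0.0571 and an adjusted p of 0.999 in limma. The higher KO value in 3 of 3 pairs follows from the separate groups. Lims1, PINCH-1, had 5800, 6082 and 5605 in WT and 6457, 6963 and 6299 in KO, a small but ordered difference of 0.17 (SE 0.17). Lims1 is singled out after its values were seen. Lims2, PINCH-2, had 602, 120 and 271 in WT and 165, 178 and 128 in KO, with WT replicate 2 the lowest library of the 6, and a log2 fold change of -0.79 (SE 0.58). Without WT replicate 1 the log2 fold change of Lims2 was -0.21, and without WT replicate 2 it was -1.37. Lims2 reached the 200.5 estimated reads that every deposited gene had in some library only in WT libraries. Ilk had 0.26 (SE 0.27).

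Among the signalling members, the Cas scaffolds Bcar1 and Nedd9 lay on opposite sides. Both are substrates of FAK and SRC at adhesions, and they share the same domain order. Nedd9 (ENSMUSG00000021365, GRCm38 chromosome 13, 41309581 to 41487362, minus strand) had 1130, 1115 and 1580 scaled reads in WT and 1730, 2317 and 2018 in KO. The WT mean was 1275 ± 264 and the KO mean 2022 ± 294 (SD, n = 3 each), and the groups did not overlap. The log2 fold change of Nedd9 was 0.67 (SE 0.22), with an unadjusted p of 0.0195 and an adjusted p of 0.999 in limma. Its exact permutation p of 0.1 and its higher value in 3 of 3 pairs follow from the separate groups. Bcar1, p130Cas, had 4906, 4126 and 3802 in WT and 3330, 3280 and 3645 in KO, without overlap. Its log2 fold change was -0.32 (SE 0.19), at an unadjusted p of 0.13 in limma.

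Ptk2, which encodes FAK, had a log2 fold change of 0.11 (interval -0.66 to 0.87) and Src, its partner kinase, 0.09 (interval -0.49 to 0.67). Pxn, the adaptor paxillin, had 0.08 (interval -0.74 to 0.90). KO replicate 3 was the highest of the 6 libraries for Ptk2 and Src.

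**Figure D3:**
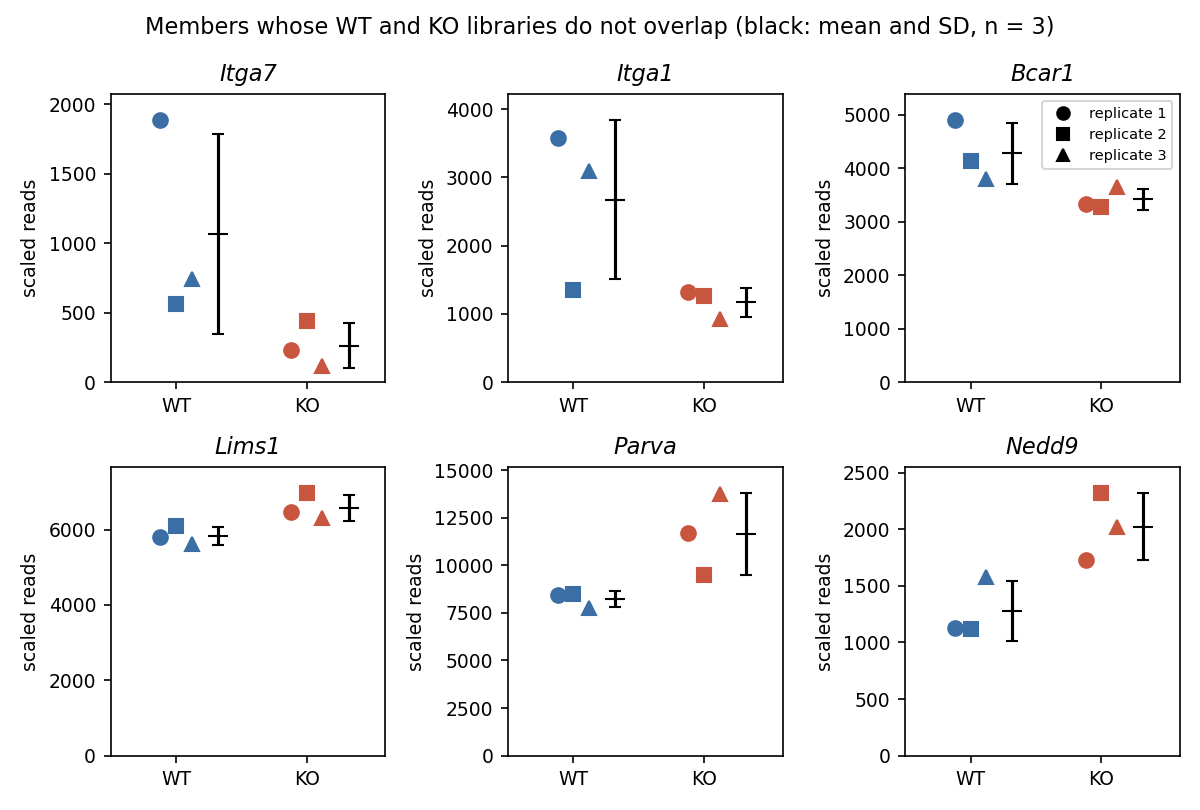
Scaled reads of the 6 members whose WT and KO libraries do not overlap, with 1 symbol per library and, in black, the mean and SD of each group (n = 3). Itga7, Itga1 and Bcar1 are lower in KO and Lims1, Parva and Nedd9 higher. The gap is narrow for Itga1 (1355 in WT replicate 2 against 1318 in KO replicate 1).

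Promoter sequences are shown for Itga1 and Nedd9, which with Itga7 had the smallest p-values of the members. Each runs from 250 bases before to 50 bases after a transcript start in RefSeq (GRCm38.p6), 5′ to 3′ on the gene's strand. The Itga1 window is chr13:115101915-115102214 and the Nedd9 window chr13:41358952-41359251, both on the minus strand. The Nedd9 start lies inside the gene's deposited span. Capitals mark matches to an E-box (CANNTG) in Itga1 and to a GC box (GGGCGG or its complement) in Nedd9.
Itga1: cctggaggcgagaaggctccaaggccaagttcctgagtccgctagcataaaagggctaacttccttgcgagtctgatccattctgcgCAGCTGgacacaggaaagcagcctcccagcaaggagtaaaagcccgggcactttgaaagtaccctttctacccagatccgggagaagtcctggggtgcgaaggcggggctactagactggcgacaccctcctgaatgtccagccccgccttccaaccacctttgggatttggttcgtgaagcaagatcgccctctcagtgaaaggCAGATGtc
Nedd9: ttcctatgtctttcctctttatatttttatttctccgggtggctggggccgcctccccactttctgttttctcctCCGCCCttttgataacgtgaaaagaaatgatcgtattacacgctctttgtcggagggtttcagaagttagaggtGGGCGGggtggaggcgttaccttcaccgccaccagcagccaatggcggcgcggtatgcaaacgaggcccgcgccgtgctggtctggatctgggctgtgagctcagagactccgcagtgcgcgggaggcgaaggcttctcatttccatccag

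The motifs searched on both strands were the E-box, the GC box, the TEAD motif (GGAATG), the AP-1 motif (TGANTCA) and the CArG box bound by serum response factor. In Itga1 the 2 E-boxes begin 163 bases before the start and at base 43 after it, and in Nedd9 the 2 GC boxes begin 175 and 101 bases before it. These matches do not overlap, and neither window held a TEAD, AP-1 or CArG match. Of all promoter windows of this length, 72.3% held an E-box, 35.7% a GC box, 14.7% a TEAD motif, 7.81% an AP-1 motif and 1.63% a CArG box. Windows were found for 26 members, and 2 of these, Vcl and Fermt2, held a CArG box.

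Ratios within a library do not depend on how libraries are scaled, and the pairs were chosen after the values were seen, so they are given as a description. The ratio of Nedd9 to Bcar1 per kilobase was 0.164, 0.193 and 0.296 in WT and 0.370, 0.504 and 0.395 in KO. The KO ratios were all above the WT ratios, with means of 0.423 ± 0.071 in KO and 0.218 ± 0.070 in WT (SD, n = 3 each). Nedd9 and Bcar1 were each separate in opposite directions, so the separation of their ratio was fixed in advance and adds nothing. The ratio of Parvb, beta-parvin, to Parva was 0.336, 0.123 and 0.358 in WT and 0.0969, 0.0465 and 0.0732 in KO, again without overlap and in the other direction. The ranges of Parvb and Parva in each genotype fix this separation in advance too, however libraries are matched, so it adds nothing to them. The ratios of Lims2 to Lims1 and of Tln2 to Tln1 overlapped between the genotypes. So did those of Actn4 to Actn1, Tns3 to Tns1, Itga2 to Itga1, Itga7 to Itga6, Itga5 to Itgav and Itgb3 to Itgb5. The share of separate ratios among pairs of all genes was not computed.

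**Figure D4:**
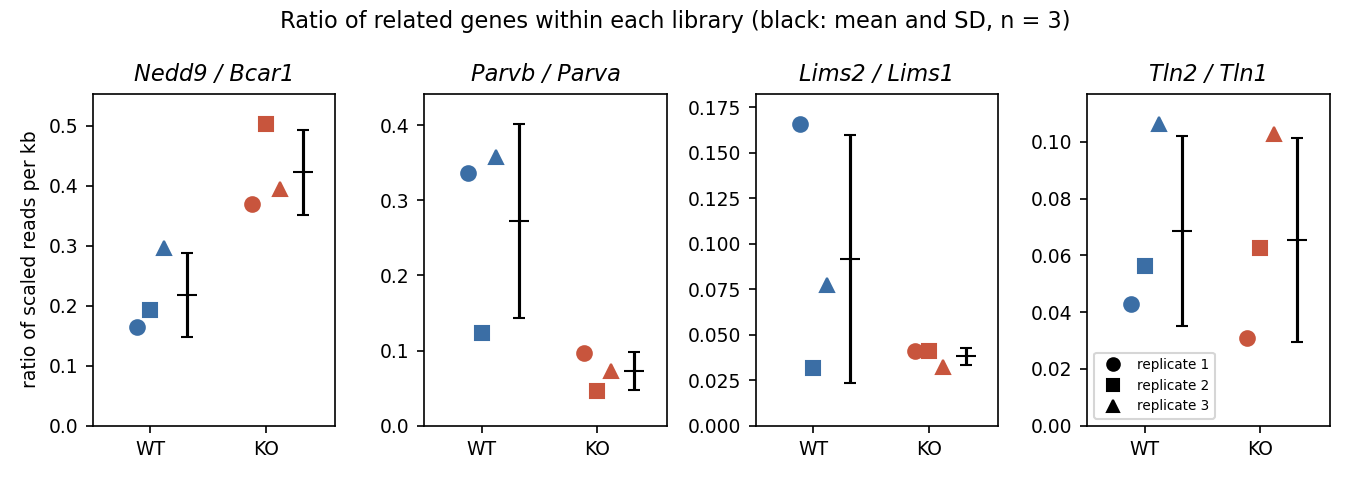
Ratio of scaled reads per kilobase between related adaptor genes within each library, with the mean and SD of each group in black (n = 3). The Nedd9 to Bcar1 ratio is higher in all KO libraries, which the separate values of both genes fix in advance. The Parvb to Parva ratio is lower in all KO libraries, which the ranges of both genes also fix in advance. The other ratios plotted overlap, as do those computed and not plotted.

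Some members share bases with other genes, so their values are uncertain where the counting may have divided reads. Itga9, Vcl, Tln1, Ilk and Zyx overlap a gene on the opposite strand, and Lpp contains the pseudogene Morf4l1-ps1 on its own strand.

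Differences between cultures of 1 genotype were often as large as those between genotypes. WT replicate 3 was the lowest library of the 6 for Itga2, Itga3, Itga5, Itga6, Itgb3, Tns2, Pxn, Parva and Lims1. It was the highest for Itgb1, Vcl, Tln1, Tln2, Fermt2, Zyx, Lpp and Ilk. The highest library exceeded the lowest by 16.2-fold for Itga3 and 15.4-fold for Itga2, but by 1.24-fold for Lims1, 1.31-fold for Itgb5 and 1.47-fold for Itgav. WT replicate 3 also had the highest smooth muscle marker sum.

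**Figure D5:**
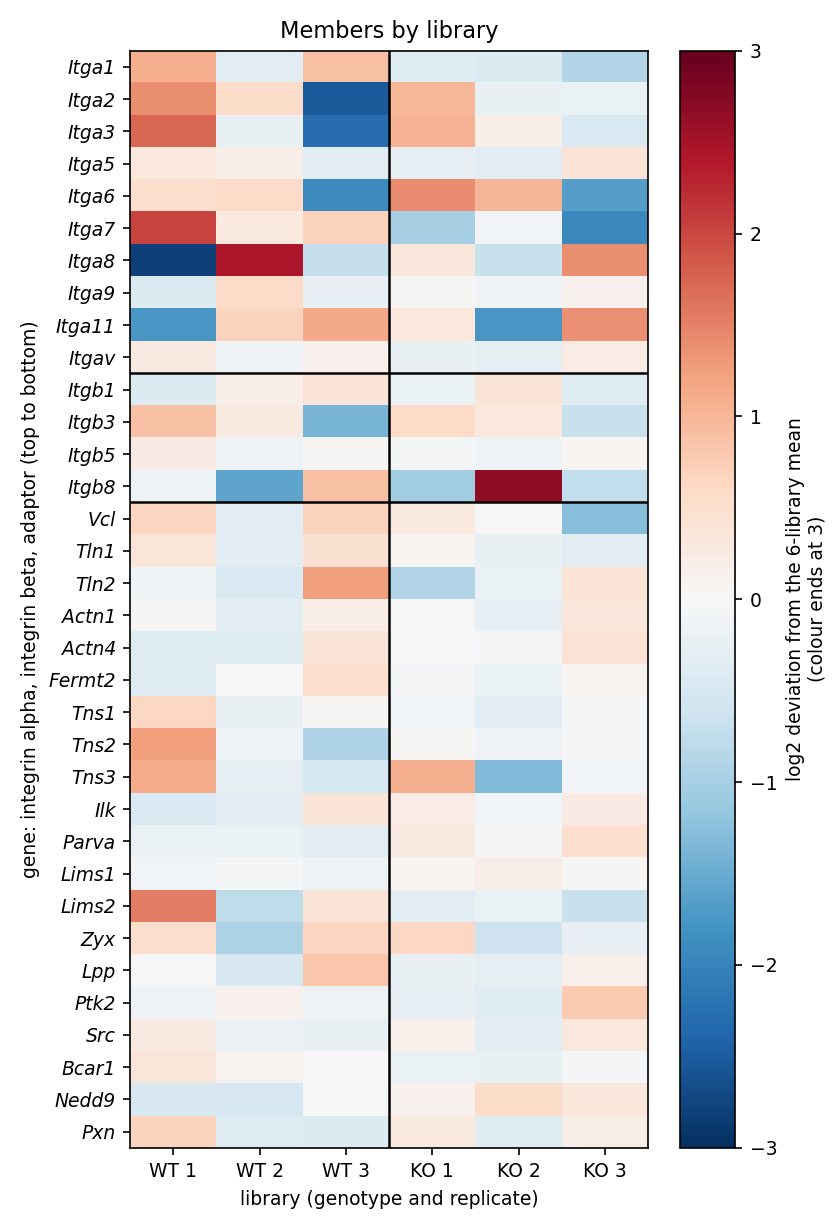
Log2 deviation of each member from its mean over the 6 libraries (log2 of scaled value + 2), with integrin alpha, integrin beta and adaptor genes from top to bottom. Red is above and blue below the mean. In the WT columns the strongest colours are those of alpha chains, while in the KO columns the strongest is that of Itgb8 in KO replicate 2. Itga7 and Itga1 lie below the mean in all KO columns. Itga7 does so only just in KO replicate 2, and Itga1 is also below its mean in WT replicate 2.

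Other genes of the same machinery are given from lists chosen with earlier results of these data known. Of 38 further adhesion adaptors 34 were tested, with 2 higher and 3 lower in KO at an unadjusted p under 0.05 in limma, or 5.88% and 8.82% beside 1.46% and 2.15% of all genes tested, none past an adjusted p of 0.05, and a median log2 fold change of -0.13. Evl, an actin-polymerising relative of VASP, had 193, 414 and 406 scaled reads in WT and 595, 834 and 959 in KO, without overlap, and a log2 fold change of 1.28 (SE 0.37). Csrp2, a LIM protein of smooth muscle, had 1.71 (SE 0.51), while Nexn, nexilin, an actin-binding protein of muscle adhesions, had -1.04 (SE 0.37). Parvb had 1230, 455 and 1204 in WT and 492, 192 and 438 in KO, a log2 fold change of -1.34 (SE 0.52), lower in 3 of 3 pairs although the groups overlapped. The fifth gene of this count, Ppfibp1, a liprin named because it completes the count, had -0.52 (SE 0.20).

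Of 42 further signalling genes at adhesions 40 were tested, with a median of -0.04, and none passed an adjusted p of 0.05 in limma. At an unadjusted p under 0.05 in limma 0 were higher and 1 lower, or 0% and 2.5%. These shares stand beside 1.46% and 2.15% of all genes tested. The lower gene was Arhgef6, an exchange factor for RAC and CDC42 that binds parvins, at 418, 444 and 702 in WT and 175, 307 and 289 in KO, with a log2 fold change of -1.01 (SE 0.34). Lyn, a kinase of the SRC family, had -1.04 (SE 0.51), Dock1, a RAC activator downstream of p130Cas, 0.45 (SE 0.27) and Git1, a partner of paxillin, -0.27 (SE 0.18). Of 12 other integrin genes 5 were tested, 0 had an unadjusted p under 0.05 in limma, and the median was -0.44.

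Of 35 integrin ligands 32 were tested, with a median of 0.11 and none past an adjusted p of 0.05 in limma. At an unadjusted p under 0.05 in limma 1 was higher and 1 lower, or 3.1% each, beside 1.46% and 2.15% of all genes tested. With same-numbered libraries paired in a replicate block, 4 ligands were higher and 2 lower at an unadjusted p under 0.05 in limma, and 0 of the further signalling genes were higher and 2 lower. Over all genes tested the block gave 3.17% higher and 4.25% lower. Icam1, the counter-receptor of leukocyte integrins, had the lowest adjusted p of the list in limma, 0.274, with a log2 fold change of -2.30 (SE 0.28). Thbs1, thrombospondin 1, had 98848, 109809 and 114641 in WT and 203362, 184388 and 147717 in KO, and a log2 fold change of 0.72 (SE 0.28). Col5a1 and Npnt, the latter a ligand of the alpha-8 integrin, had 0.80 (SE 0.35) and 2.34 (SE 1.03).

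Some markers of other cell types were ordered by genotype as some members were. The 4 tested of 8 leukocyte markers summed to between 1524 and 1687 scaled reads in WT and between 499 and 1358 in KO, lower in KO as Itga7, Itga1 and Bcar1 were. Of these 4, Lyz2 was separate between the groups, while Csf1r, Itgb2 and Cd68 overlapped. In replicate 3 these overlapping markers were higher in KO than in WT, for example 899 against 858 for Csf1r. The 2 tested of 5 Schwann and neural markers summed to between 1119 and 1677 in WT and between 1871 and 5136 in KO, higher as Nedd9 and Parva were. Ncam1 made up most of this sum, with 1531, 880 and 1282 in WT and 1597, 3787 and 5127 in KO. The other marker, S100b, overlapped, with 146, 239 and 43.5 in WT and 274, 529 and 9.25 in KO. The smooth muscle marker Myh11 had a log2 fold change of -2.63 (SE 1.16), in the direction of Itga7 and Itga1. Myh11 reached 200.5 estimated reads in WT replicate 3 alone. Of the 7 smooth muscle markers 5 were below 0 and 2 above, the latter being the abundant Acta2 at 0.14 (SE 1.02) and Tagln at 0.56 (SE 1.23). The group means of these genes ran the other way, with the KO mean at 64.5% of WT for Acta2 and 85.7% for Tagln. The sums of the 6 fibroblast markers (18120 to 65470 in WT, 21035 to 58537 in KO), of the 5 tested of 7 epithelial and mesothelial markers (5562 to 9936 and 1098 to 6769) and of the 1 tested of 7 endothelial markers, Kdr (42.7 to 433 and 21.3 to 423), overlapped between genotypes. Krt18 and Cdh1 were at 0 in KO replicate 3. The remaining markers of these lists are not analysed here. The part of these cell types in the results was not tested.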

How the data were processed

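Per the labels' protocols, the libraries were stranded, poly(A)-selected and read paired-end on a NovaSeq 6000. STAR, Partek and DESeq2, with builds GRCm39 and mm39, are named without versions or roles, per the submitters' processing notes. The sources used here give no counting settings, nor whether strand was used. The deposited gene coordinates are those of GRCm38: of 12385 genes in GENCODE M21, 12341 had the same start.

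The deposited per-library values are a scaled signal and not raw counts, in the table under a raw count name too: the lowest values of a library are multiples of 1 step, worth 0.712 to 1.19 in the 6 libraries, and 82.5% to 92.4% of values up to 50 reads lay within 0.05 of a whole read, too few to recover whole reads. The authors' deposited comparison table gives p-values with an FDR, log2 ratios and ratios or fold changes of KO over WT, other signed fold limits, and mean signal. Its group means and fold limits were not used.

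limma 3.58.1 in R 4.3.3, with trended and robust priors (statmod 1.5.0), was fitted on log2(value + 2) with genotype alone for 12363 genes with at least 10 in at least 3 libraries, among them all 34 members. 26 genes were left out. Benjamini-Hochberg adjustment ran over all genes, and all tests are two-sided. The fit was run on simulated data with less noise than these data and with large added changes. How well it finds changes at the noise of these data was not tested. Estimated depth was 31.0 to 47.9 M reads, and the median residual SD over all genes was 0.36 on the log2 scale, or 0.26 with the replicate block. Same-numbered libraries deviated together (correlations across genes of 0.43, 0.15 and 0.39), so pairing by number comes from the data and no label. Pairs were used only in the replicate block and in the differences by pair. All other SEs, intervals and p-values from limma are unpaired.

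Values in every library are given for the members of each role with the smallest p (4 alpha, 2 beta and 7 adaptor genes) or the highest level per kilobase (2, 1 and 3), for members without overlap, and for others that show the spread between cultures. Other lists name up to 4 genes by p. The member rule uses no measured value, but members and lists were chosen with earlier results of these data known. Alternatives were 3 other scalings, 2 filters, pseudocounts of 1 and 10, the normalized counts table, limma-voom, plain priors, a fit with the replicate block, library quality weights, and fits that each leave out 1 library. Figures used matplotlib 3.10.9.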

Additional observations from a re-analysis of the deposited data

How the results depend on the processing

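No member passed an adjusted p of 0.05 under any of the 18 alternatives, and 10 members kept their sign in all of them: Itga1, Itga7, Itgav, Actn4, Tns1, Ilk, Parva, Lims1, Bcar1 and Nedd9. With the replicate block the count of members at an unadjusted p under 0.05 in limma stayed at 3, or 2.94% higher and 5.88% lower. Over all genes tested the shares rose with the block, to 3.17% higher and 4.25% lower from 1.46% and 2.15%. The lowest adjusted p of a member with the block was 0.571 in limma, and the block changed no call of a member. Leaving out a library in turn gave counts from 1 (without WT replicate 1) to 3, with changes in which genes passed: Lims2 entered without WT replicate 2, Ilk without WT replicate 3 and Parva without KO replicate 2. There were 6 to 12 members without overlap, where fewer libraries make overlap rarer by construction. Without a sign change, Vcl ran from -0.99 to -0.20 and Lims2 from -1.37 to -0.21. In those fits the median log2 fold change ran from -0.30 to 0.32 for the alpha subunits and from -0.16 to 0.12 for the adaptors.

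Leaving out a library turned the sign of these log2 fold changes, given as lowest and highest: Itga2 -0.78 and 1.18, Itga3 -0.48 and 1.53, Itga5 -0.34 and 0.029, Itga6 -0.29 and 1.48, Itga8 -0.50 and 2.11, Itga9 -0.15 and 0.35, Itga11 -0.91 and 0.83, Itgb1 -0.35 and 0.048, Itgb3 -0.48 and 0.65, Itgb5 -0.18 and 0.014, Itgb8 -0.60 and 1.25, Tln2 -0.78 and 0.070, Actn1 -0.091 and 0.21, Fermt2 -0.30 and 0.15, Tns2 -0.58 and 0.50, Tns3 -0.82 and 0.39, Zyx -0.68 and 0.13, Lpp -0.54 and 0.10, Ptk2 -0.25 and 0.32, Src -0.046 and 0.28, and Pxn -0.11 and 0.44.

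Library quality weights, whose estimation stopped before it converged, called 30 genes and turned 12 members: Itga2 to -0.33, Itga8 to -2.14, Itga9 to -0.52, Itgb5 to 0.030, Vcl to 0.15, Tln1 to 0.10, Tln2 to 0.028, Tns2 to 0.050, Lims2 to 0.30, Zyx to 0.58, Lpp to 0.16 and Ptk2 to -0.31. Without a sign change, the weights moved Itga7 to -0.95, Itga1 to -0.26 and Itgb8 to 2.62. The alpha median was then -0.36 and the adaptor median 0.16, and the cause was not tested. The lowest adjusted p of a member with the weights was 0.0973, for Nedd9. The other 11 settings turned no sign.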
